A study of Mus musculus with 6 samples.

Results

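Interferon-stimulated genes were followed in cells sorted from the pressure-overloaded mouse heart. The set holds 39 listed genes, among them the RNA sensors, transcription factors and antiviral effectors that are usually measured as the readout of interferon signalling. Of these, 37 had a probe set annotated with exactly 1 gene symbol, and 35 counted as detected because on 1 or more of the 6 arrays they were brighter than that array's median. They are 35 of 12257 detected genes. Oas3 and Mx1 had a probe set but were not detected. For Isg15 and Ifi44 no probe set with a single symbol was used here. The 6 groups, with 1 array each, were Tie2cre lineage traced cardiac fibroblasts after TAC and after sham surgery, non-lineage traced cardiac fibroblasts after TAC and after sham surgery, and endothelial cells after TAC and after sham surgery. TAC, constriction of the transverse aorta, makes the left ventricle pump against raised pressure. All cells came from the left ventricles of male Black Swiss mice of 8 to 10 weeks, with 3 mice for each surgery, and were collected 1 week after it. Tie2-Cre is driven by the promoter of Tek, the gene of an endothelial receptor, and leaves a permanent mark in cells that used this promoter or descend from cells that did. The labels do not say whether the RNA of the 3 mice was pooled, nor whether the 3 cell populations of a surgery came from the same hearts.

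Type I interferons signal through a receptor made of Ifnar1 and Ifnar2, and interferon gamma through Ifngr1 and Ifngr2. The JAK kinases bound to these receptors phosphorylate STAT proteins. Complexes of STATs with IRF9 then bind the interferon-stimulated response element (ISRE) in promoters, while STAT dimers bind the gamma-activated site (GAS). In the heart these genes are best known from viral myocarditis, where they restrict virus in muscle and stromal cells, and most cell types also transcribe a basal amount of them without infection.

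The promoters of the genes with the largest differences between TAC and sham were read first, because the set is named for a response encoded in its promoters. The sequences are those of RefSeq on GRCm38.p6, each 300 bases long and running from 250 bases before to 50 bases after the transcription start, written 5′ to 3′ on the strand of the gene. Shown are the promoters on file for genes that stood at least 2-fold higher after TAC in both fibroblast populations (Rsad2 and Oasl1) or at least 2-fold lower after TAC in endothelial cells (Igtp, Irgm1 and Irgm2). Capitals mark the letters GAAANNGAAA (ISRE) and TTCNNNGAA (GAS), searched on both strands. Rsad2 lies on the minus strand at chr12:26456403-26456702, Oasl1 on the plus strand at chr5:114922990-114923289, Igtp on the plus strand at chr11:58199306-58199605, Irgm1 on the minus strand at chr11:48871371-48871670 and Irgm2 on the plus strand at chr11:58214727-58215026.
Rsad2: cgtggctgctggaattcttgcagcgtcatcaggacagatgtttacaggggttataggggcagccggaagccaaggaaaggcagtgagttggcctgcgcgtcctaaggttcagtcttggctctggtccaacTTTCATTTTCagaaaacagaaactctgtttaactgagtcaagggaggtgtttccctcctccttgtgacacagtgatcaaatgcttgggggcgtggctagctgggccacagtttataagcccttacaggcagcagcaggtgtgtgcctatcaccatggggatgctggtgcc
Oasl1: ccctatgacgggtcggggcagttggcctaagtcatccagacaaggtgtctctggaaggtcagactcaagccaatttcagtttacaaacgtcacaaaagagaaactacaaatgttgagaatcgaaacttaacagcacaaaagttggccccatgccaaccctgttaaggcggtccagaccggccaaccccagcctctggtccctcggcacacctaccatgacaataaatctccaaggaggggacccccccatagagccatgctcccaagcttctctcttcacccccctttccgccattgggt
Igtp: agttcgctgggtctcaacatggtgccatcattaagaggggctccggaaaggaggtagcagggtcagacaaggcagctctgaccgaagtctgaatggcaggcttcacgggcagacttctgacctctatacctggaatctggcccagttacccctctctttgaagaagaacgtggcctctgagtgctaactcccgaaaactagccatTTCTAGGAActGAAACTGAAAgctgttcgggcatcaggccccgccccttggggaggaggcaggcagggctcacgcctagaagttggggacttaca
Irgm1: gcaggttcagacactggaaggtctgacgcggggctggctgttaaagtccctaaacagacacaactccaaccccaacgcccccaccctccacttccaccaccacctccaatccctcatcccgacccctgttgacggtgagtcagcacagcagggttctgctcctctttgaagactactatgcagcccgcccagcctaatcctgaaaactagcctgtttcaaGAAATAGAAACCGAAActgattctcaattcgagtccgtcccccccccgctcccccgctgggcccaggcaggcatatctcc
Irgm2: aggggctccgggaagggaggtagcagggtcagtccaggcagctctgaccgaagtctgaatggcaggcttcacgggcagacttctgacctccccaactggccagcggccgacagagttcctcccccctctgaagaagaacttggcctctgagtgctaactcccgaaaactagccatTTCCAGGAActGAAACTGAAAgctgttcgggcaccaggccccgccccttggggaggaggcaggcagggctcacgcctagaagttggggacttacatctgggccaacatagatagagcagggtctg
The ISRE letters of Rsad2 are on the opposite strand and begin at -120, counted from the start. Irgm1 held 2 overlapping ISRE matches that begin at -30 and -24. Igtp held an ISRE match at -34 and a GAS match at -45, and Irgm2 an ISRE match at -64 and a GAS match at -75. No match to either set of letters was in the Oasl1 window.

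Of the 39 genes, 30 had a promoter on file, and the ISRE letters were in 16 of these 30 (53.3%), against 1079 of all 27025 genes with a promoter (3.99%). They were in all 5 GTPase genes with a promoter on file (Gbp2, Gbp3, Igtp, Irgm1 and Irgm2), in both RNA sensor genes on file (Ifih1 and Ddx58), in Ifit1 and Ifit3 of the IFIT family, in Oas1a and Oas3 of the OAS family, and in Stat2, Isg15, Bst2, Eif2ak2 and Rsad2. The GAS letters were in 9 of the 30 (30%; Bst2, Eif2ak2, Ifi35, Ifit2, Igtp, Irf1, Irgm2, Isg20 and Oas1a), against 9.55% of all genes. A match is a description of the letters in this window only. Rtp4, Oas2, Parp14, Parp9, Mx2, Mx1, Usp18, Dhx58 and Iigp1 are named without a sequence.

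The sorted populations carried the fibroblast or endothelial markers of their labels. The traced and untraced labels were not checked by these markers. The 12 fibroblast markers had a median of 13.01 to 13.31 on the 4 fibroblast arrays, and the 12 endothelial markers a median of 12.95 on the endothelial TAC array and 13.26 on the endothelial sham array (log2 probe set intensity, the scale of all levels and differences below unless a fold is given). The endothelial TAC array also carried fibroblast transcripts: Col1a1, a collagen gene, stood at 13.01 there and at 8.58 on the endothelial sham array, and 11 of the 12 fibroblast markers were at least 2-fold higher. Summed over the 12 markers, the fibroblast list came to 129.3 on the endothelial TAC array and 97.3 on the endothelial sham array, beside 156.1 to 158.5 on the fibroblast arrays. Of 10 lymphocyte and other leukocyte markers with a probe set, 0 to 2 were above the array median, the array medians being 6.74 to 6.85. The 2 detected were Siglech (6.53 to 7.56) and S100a9 (5.59 to 7.05). Ptprc (4.78 to 5.70) and Cd3e (5.03 to 5.37) lay below the median of every array. Macrophage transcripts were read as well: of 12 macrophage markers 6 or 7 were above the array median on the fibroblast arrays, 7 on the endothelial TAC array and 3 on the endothelial sham array. Among them, Adgre1 lay at 4.93 to 5.35, Lyz2 at 8.01 to 9.24 and Cx3cr1 between 5.84 on the endothelial sham array and 9.94 on the traced sham array. Mural cell and cardiomyocyte transcripts were also read, with 9 or 10 of 10 mural and 3 to 6 of 8 cardiomyocyte markers above the array median. The 18S ribosomal RNA controls were low on the untraced TAC array (11.15 to 13.67, against 13.73 to 14.76 on the other 5 arrays). No 2 arrays held identical values. In such bulk samples fewer cells of a type and less RNA per cell cannot be told apart.

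The 35 detected genes spanned a wide range of intensity. Their median was 9.14 on the traced TAC array and 9.05 on the traced sham array, 9.30 on the untraced TAC array and 9.03 on the untraced sham array, and 10.23 on the endothelial TAC array and 10.39 on the endothelial sham array. Trim25, a ubiquitin ligase that activates the sensor RIG-I, lay between 11.76 and 12.89 throughout. Irf1, a transcription factor induced by interferon gamma, lay between 11.16 and 12.26. At the dim end, Oasl1 lay above its array's median only on the endothelial TAC array (7.05), and Mx2, a GTPase that restricts viruses, was below the array median on 5 of the 6 arrays as well. Dhx58 was below it on 3 arrays, and Oas2 and Usp18 on 1 each. Probe sets of different genes differ in affinity, so a level is compared only within a gene.

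**Figure D1:**
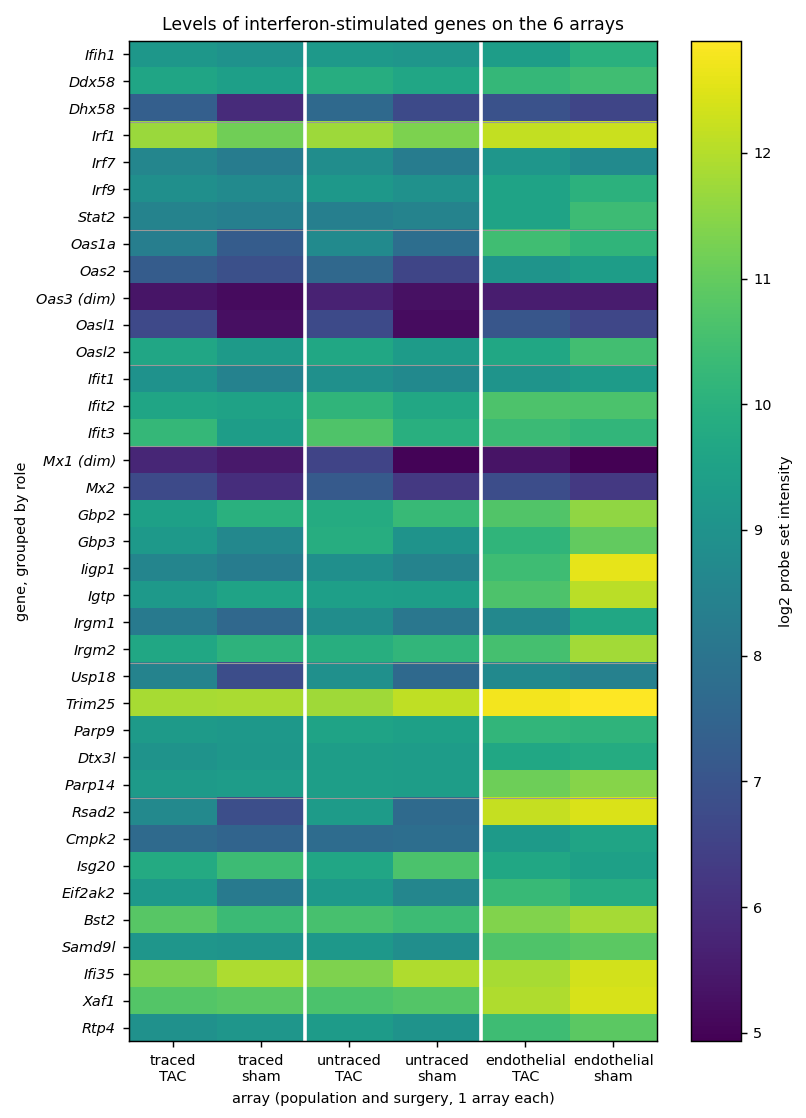
Log2 probe set intensity of the 37 interferon-stimulated genes with a probe set (rows, grouped by role) on the 6 arrays (columns, 1 array per population and surgery). Rsad2 is bright on both endothelial arrays (12.20 after TAC, 12.43 after sham) and dim on the traced sham array (6.84). Iigp1 is brightest on the endothelial sham array (12.59), followed by the endothelial TAC array (10.41). Oas3 and Mx1 are marked as dim because they were not detected.

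The first comparison set TAC against sham within each population. In fibroblasts, the antiviral genes Rsad2, Usp18 and Oasl1 stood at least 2-fold higher after TAC in both the traced and the untraced cells, and Oas1a, Oas2, Dhx58 and Eif2ak2 did so in 1 of the populations. Each group has 1 array, so these differences were not tested, and a gene is counted when it differs at least 2-fold. Rsad2 encodes viperin, an enzyme that makes a chain-terminating nucleotide against viral polymerases. It stood at 8.68 after TAC and 6.84 after sham in traced fibroblasts, at 9.30 after TAC and 7.69 after sham in untraced fibroblasts, and at 12.20 after TAC and 12.43 after sham in endothelial cells. Both fibroblast TAC arrays lay above both fibroblast sham arrays, and all 4 lay well below the endothelial arrays. The differences were 1.84 and 1.62 in traced and untraced fibroblasts, 3.31-fold on average, and -0.23 in endothelial cells. Rsad2 has 3 probe sets, and the other probe sets gave 0.40 and 2.35 in traced and 0.89 and 1.81 in untraced fibroblasts, so the size depends on the probe set while the sign does not.

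Usp18, the protease that removes ISG15 from proteins and damps type I receptor signalling, stood at 8.48 after TAC and 6.81 after sham in traced fibroblasts, at 8.93 after TAC and 7.64 after sham in untraced fibroblasts, and at 8.72 after TAC and 8.42 after sham in endothelial cells. Its differences were 1.67, 1.29 and 0.30, and the fibroblast TAC levels overlapped the endothelial levels while the fibroblast sham levels lay below them. Oasl1, an OAS-like protein without the enzyme activity of its relatives, stood at 6.68 after TAC and 5.26 after sham in traced fibroblasts, at 6.71 after TAC and 5.19 after sham in untraced fibroblasts, and at 7.05 after TAC and 6.62 after sham in endothelial cells. The differences were 1.42, 1.52 and 0.44. All 4 fibroblast values of Oasl1 lay below the array median, a range in which RMA, the summary method behind the values, pulls differences towards 0.

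The number of genes at least 2-fold higher after TAC was 6 of 35 (17.1%) in traced fibroblasts, where 6.03% of all detected genes were, 4 of 35 (11.4%) in untraced fibroblasts, where 4.86% were, and 3 of 35 (8.57%) in both, where 4.19% were. None of the 35 was at least 2-fold lower in traced fibroblasts (2.7% of all genes), in untraced fibroblasts (2.95%) or in both (1.79%). The median difference over the 35 genes was 0.19 in traced fibroblasts, against 0.07 over all genes, and 0.28 in untraced fibroblasts, against 0.02 over all genes. Most of the set lay near the bulk of the array, with a handful of genes in its upper tail. The counts depended on the scaling. In untraced fibroblasts the split between higher and lower genes was 4 to 0 as deposited. It was 3 to 1 after quantile normalization or centring on housekeeping genes, without Oas2 and with Isg20 as the lower gene. In traced fibroblasts 4 genes were higher after either of these, without Oas1a and Eif2ak2. Rsad2, Usp18 and Oasl1 stayed at least 2-fold higher in both populations.

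By role, the sensors of viral RNA differed little apart from Dhx58. Dhx58, which encodes LGP2, a regulator of the other sensors, stood at 7.35 after TAC and 5.92 after sham in traced fibroblasts, at 7.65 after TAC and 6.73 after sham in untraced fibroblasts, and at 6.95 after TAC and 6.61 after sham in endothelial cells. Its differences were 1.44, 0.92 and 0.33. Of its other 2 probe sets, one gave 1.10 in traced fibroblasts and the other, a dim one, -0.09. Ifih1, which encodes MDA5, a sensor of long double-stranded RNA, differed by 0.15 in traced and 0.13 in untraced fibroblasts and by -0.64 in endothelial cells. Ddx58, which encodes RIG-I, a sensor of short RNA with a 5′ triphosphate, differed by 0.17, 0.25 and -0.22, but its other 2 probe sets gave -0.53 and -0.01 in untraced fibroblasts. The Ifih1 value in untraced fibroblasts became -0.06 after centring on housekeeping genes.

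The transcription factors showed no 2-fold difference between surgeries. Irf1 differed by 0.54 in traced and 0.43 in untraced fibroblasts and by -0.09 in endothelial cells. Irf7, the factor that amplifies type I interferon production, differed by 0.32, 0.55 and 0.36, so it was higher after TAC in all 3 populations. Irf9 and Stat2, both parts of the ISRE-binding complex, were near 0 in fibroblasts (0.16 and 0.22 for Irf9, 0.12 and -0.11 for Stat2) and lower after TAC in endothelial cells (-0.48 for Irf9, -0.84 for Stat2). The traced value of Stat2 was -0.01 after quantile normalization.

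Active enzymes of the OAS family make oligoadenylates that switch on RNase L, and Oasl1 is without this activity. Oas1a stood at 8.33 after TAC and 7.23 after sham in traced fibroblasts, at 8.73 after TAC and 7.80 after sham in untraced fibroblasts, and at 10.44 after TAC and 10.15 after sham in endothelial cells, differences of 1.09, 0.94 and 0.29. Oas2 stood at 7.24 after TAC and 6.87 after sham in traced fibroblasts, at 7.63 after TAC and 6.59 after sham in untraced fibroblasts, and at 9.05 after TAC and 9.37 after sham in endothelial cells, differences of 0.37, 1.03 and -0.32. For both genes the fibroblast TAC levels lay above the fibroblast sham levels and below the endothelial levels. Oasl2 differed by 0.38 and 0.37 in fibroblasts and by -0.82 in endothelial cells. Oas3, not detected, differed by 0.21, 0.40 and 0.04.

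The IFIT proteins bind viral RNA that lacks host cap methylation. Ifit3 differed by 0.87 in traced and 0.75 in untraced fibroblasts, and Ifit1 by 0.56 and 0.24, all short of 2-fold. Ifit2 differed by 0.09 and 0.42, the traced value becoming -0.03 after centring on housekeeping genes and -0.01 after quantile normalization. In endothelial cells the 3 genes differed by 0.19 (Ifit3), -0.27 (Ifit1) and 0.03 (Ifit2).

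Of the other effectors, Eif2ak2 encodes PKR, the kinase that stops translation on double-stranded RNA. It stood at 9.25 after TAC and 8.19 after sham in traced fibroblasts, at 9.24 after TAC and 8.57 after sham in untraced fibroblasts, and at 10.30 after TAC and 9.87 after sham in endothelial cells. Its differences were 1.06, 0.66 and 0.42, and all 3 of its probe sets gave higher values after TAC in every population. Bst2, the tetherin that holds budding virions at the cell surface, differed by 0.47 in traced and 0.19 in untraced fibroblasts and by -0.43 in endothelial cells. Cmpk2, a mitochondrial nucleotide kinase, differed by 0.19, -0.06 and -0.32, and Samd9l, an inhibitor of translation in virus-infected cells, by 0.06, 0.30 and -0.20. A few genes ran the other way in fibroblasts. Isg20, a 3′ exonuclease, stood at 9.79 after TAC and 10.39 after sham in traced fibroblasts, at 9.64 after TAC and 10.63 after sham in untraced fibroblasts, and at 9.68 after TAC and 9.47 after sham in endothelial cells. Its differences of -0.60 and -0.98 were opposite to those of Rsad2 in the same RNA, and its endothelial difference was 0.21. Ifi35, an interferon-induced leucine zipper protein, differed by -0.57, -0.60 and -0.48, and Xaf1, a promoter of apoptosis, by -0.08, -0.13 and -0.47. Rtp4, a chaperone of membrane receptors, differed by -0.14, 0.28 and -0.46.

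The enzymes of ISG15, ubiquitin and ADP-ribose differed by less than 2-fold apart from Usp18, when read from their brightest probe sets. Parp9 and Dtx3l, which work as a pair in ADP-ribosylation and ubiquitination, differed by 0.08 to 0.09 and -0.13 to 0.03 in fibroblasts and by 0.07 and -0.16 in endothelial cells. Parp14, another ADP-ribosyltransferase, differed by -0.05, 0.04 and -0.31, and Trim25 by -0.03, -0.37 and -0.14. The other probe set of Parp14 gave -0.52, -1.08 and -1.10 and that of Dtx3l -0.60, -0.66 and -0.81, so the size for these genes depends on the probe set. All 3 Parp9 values turned negative after centring on housekeeping genes, the lowest being -0.12.

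**Figure D2:**
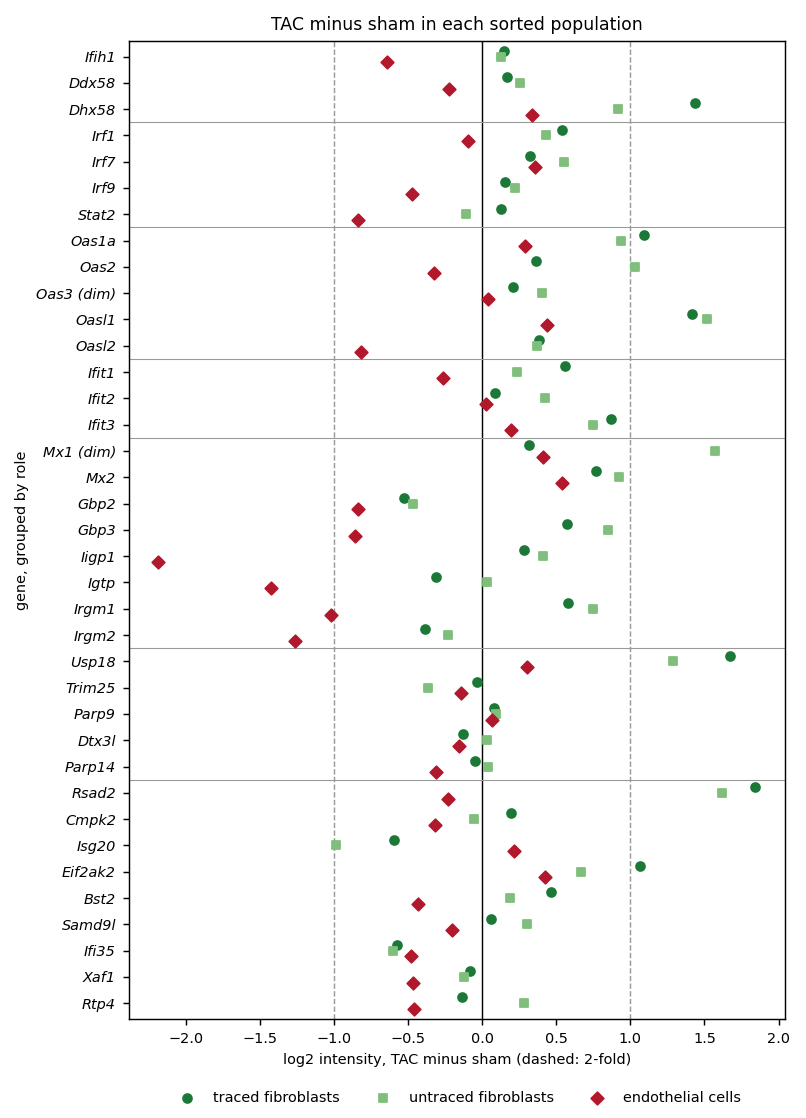
Difference in log2 intensity, TAC minus sham, for each of the 37 genes with a probe set in traced fibroblasts (dark green circles), untraced fibroblasts (light green squares) and endothelial cells (red diamonds), 1 array per group and surgery; dashed lines mark 2-fold. Rsad2 (1.84 and 1.62), Usp18 (1.67 and 1.29) and Oasl1 (1.42 and 1.52) lie beyond the right line in both fibroblast populations, and Iigp1 (-2.18), Igtp (-1.42), Irgm2 (-1.26) and Irgm1 (-1.02) lie beyond the left line in endothelial cells.

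In endothelial cells the genes that stood apart were others. The 4 genes at least 2-fold lower after TAC were all immunity-related GTPases, proteins induced by interferon gamma in mice that attack the vacuoles of intracellular parasites and bacteria. They are 4 of 35 (11.4%), where 1.73% of all detected genes were at least 2-fold lower, and none of the 35 was at least 2-fold higher, where 10.9% were. Iigp1 stood at 10.41 after TAC and 12.59 after sham in endothelial cells, against 8.28 to 8.90 on the 4 fibroblast arrays. Its endothelial difference of -2.18 is 4.55-fold, and its other probe set gave -2.22. In fibroblasts it differed by 0.28 in traced and 0.41 in untraced cells.

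Igtp stood at 10.65 after TAC and 12.08 after sham in endothelial cells, a difference of -1.42, and lay between 9.23 and 9.55 in fibroblasts, with differences of -0.31 and 0.04. Irgm2, a regulator of the other GTPases, stood at 10.54 after TAC and 11.80 after sham in endothelial cells, a difference of -1.26, and differed by -0.39 and -0.23 in fibroblasts. Irgm1, also a regulator of this family, stood at 8.64 after TAC and 9.66 after sham in endothelial cells, a difference of -1.02. In fibroblasts Irgm1 stood at 8.20 after TAC and 7.62 after sham in traced cells and at 8.84 after TAC and 8.10 after sham in untraced cells, differences of 0.58 and 0.75, so its differences had opposite signs in the 2 cell types. The guanylate-binding proteins Gbp2 and Gbp3, which coat the same vacuoles, lay just inside 2-fold in endothelial cells, at -0.84 and -0.86. The other probe set of Gbp2 gave -1.61, and with the mean of all probe sets, -1.22 for Gbp2, 5 genes were at least 2-fold lower. In fibroblasts Gbp3 was higher after TAC (0.57 and 0.85) and Gbp2 lower (-0.52 and -0.47). Among the dynamin-like GTPases, Mx2 differed by 0.77, 0.93 and 0.54. Mx1, not detected, stood at 6.57 after TAC in untraced fibroblasts and between 4.93 and 5.80 on the other 5 arrays. These families hold close relatives, and how far a probe set reads a relative was not tested.

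The median over the 35 genes in endothelial cells was -0.27, against 0.18 over all genes. Fibroblast transcripts moved with this comparison: the 12 fibroblast markers had a median difference of 2.68 (0.76 to 4.43) between the endothelial TAC and sham arrays, and their part in the result was not tested. The 12 endothelial markers differed by -0.45 to 0.06 between the same arrays, with a median of -0.27 and none at least 2-fold apart. Macrophage markers were also higher on the endothelial TAC array (8 of 8 detected, median 0.68) and cardiomyocyte markers lower (6 of 6 detected, median -1.11, with 4 at least 2-fold lower). Mural markers had a median of -0.60 there, with 8 of 10 below 0, Abcc9 and Myh11 at least 2-fold lower and Mcam at least 2-fold higher. The part of these markers was not tested either. Their summed levels were 86.6 after TAC and 79.0 after sham over 12 macrophage markers with a probe set, 67.6 after TAC and 72.5 after sham over 8 cardiomyocyte markers, and 95.9 after TAC and 100.2 after sham over 10 mural markers. In fibroblasts, 11 of 12 endothelial markers were lower after TAC in each population (median -0.79 in traced and -0.60 in untraced cells). Erg was at least 2-fold higher in both (1.79 and 1.62). Summed over the 12 markers, the level was 82.8 after TAC and 90.5 after sham in traced cells. In untraced cells it was 87.2 after TAC and 92.3 after sham. Cardiomyocyte markers had medians of 0.15 in traced and 0.10 in untraced fibroblasts, with 4 and 3 of 6 detected above 0. Among them Actc1 was at least 2-fold higher in both (1.74 and 1.49). Of the mural markers, Kcnj8, Abcc9, Vtn and Myh11 were at least 2-fold lower and Mcam at least 2-fold higher in both fibroblast populations, with medians over the list of -0.54 in traced and -0.72 in untraced cells and summed levels of 88.6 after TAC and 92.1 after sham in traced cells and 88.4 after TAC and 94.6 after sham in untraced cells. Macrophage markers had medians of -0.56 and -0.34 in traced and untraced fibroblasts, with 5 of 8 detected below 0 in each. Cx3cr1 was at least 2-fold lower in both, and Laptm5 in traced cells (-1.41). Csf1r was higher (1.44 in traced, 0.96 in untraced cells), as were Cd68 (0.72 and 0.37) and Lyz2 (0.09 and 0.17). Summed over 12 macrophage markers, the level was 81.2 after TAC and 85.2 after sham in traced cells. In untraced cells it was 77.5 after TAC and 80.8 after sham. The part of these markers in the fibroblast differences was not tested.

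Read together, 13 of the 35 genes (37.1%) were above 0 in both fibroblast populations and below 0 in endothelial cells, where 8.81% of all genes had that pattern. They were Ifih1, Ddx58, Irf1, Irf9, Oas2, Oasl2, Ifit1, Gbp3, Iigp1, Irgm1, Rsad2, Bst2 and Samd9l. Another 10 were above 0 in all 3 populations (28.6%, against 33.9% of all genes), among them Usp18, Oasl1, Oas1a, Dhx58 and Eif2ak2. Gbp2, Irgm2, Trim25, Ifi35 and Xaf1 were below 0 in all 3, and Isg20 was the only gene with the opposite pattern, which 15.2% of all genes had. Traced and untraced responses had the same sign for 29 of 35 genes (82.9%), against 75.9% of all genes. Of the first 13, Ifih1, Bst2 and Samd9l lost the pattern after centring on housekeeping genes, and Samd9l also after quantile normalization. Ddx58 lost it with the mean of all probe sets (-0.10 in untraced fibroblasts).

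**Figure D3:**
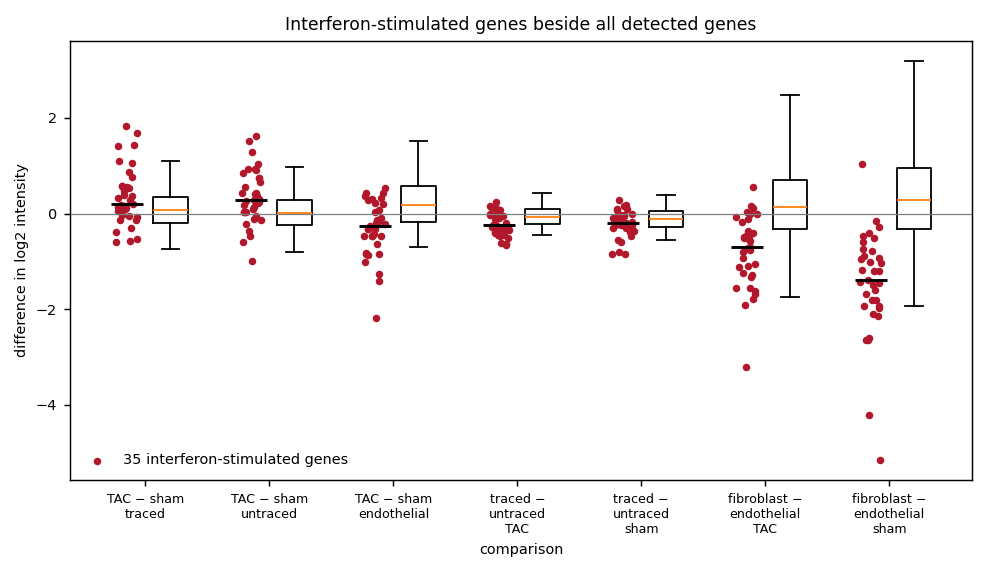
Difference in log2 intensity in 7 comparisons for the 35 detected interferon-stimulated genes (red points, black line at their median) and, to the right of each, for all 12257 detected genes (box from the lower to the upper quartile with a line at the median, whiskers from the 5% to the 95% quantile). The median of the interferon-stimulated genes lies at -0.27 against 0.18 for TAC minus sham in endothelial cells and at -1.40 against 0.28 for fibroblast minus endothelial after sham.

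The second comparison asked how the level differs between the cell types, with TAC and sham arrays both included. Of the 35 genes, 9 were lower in fibroblasts by limma's test with Benjamini-Hochberg adjustment and at least a 2-fold difference (25.7%, where 6.5% of all genes were), and none was higher (11.5% of all genes). Without the adjustment 21 of the 35 had a p under 0.05, all of them lower in fibroblasts (where 11.6% of all genes were lower at that threshold and 24% higher). Each cell type had 2 values, 1 per surgery, after the traced and untraced arrays of a surgery were averaged. The p-values thus reflect no more than the spread between TAC and sham within each cell type, part of which may be technical. A difference between the surgeries counts as spread in this fit. With surgery fitted as a block, 15 of the 35 passed, Iigp1 and Igtp among them. That fit also called more of all genes lower (9.09%, against 6.5% without the block). Cardiomyocyte markers moved the same way. All 6 detected were at least 2-fold lower in fibroblasts at both surgeries (median -2.20), 4 of them (Myh6, Myl2, Actc1 and Myl3) by limma's test. Of 10 mural markers, Rgs5 was lower by that test (-3.17, limma adjusted p = 0.00841). Summed over 8 cardiomyocyte markers, the level was 53.9 to 58.0 on the fibroblast arrays, against 67.6 after TAC and 72.5 after sham in endothelial cells. Of the other mural markers Mcam (-3.55) and Myh11 (-2.39) were at least 2-fold lower at both surgeries without passing, and Pdgfrb was higher in fibroblasts. Over the 10 mural markers 4 were above 0 and 6 below (median -0.21). Of the 8 macrophage markers detected, 4 were above 0 and 4 below (median -0.17). Among these Cx3cr1 was higher in fibroblasts (2.73, limma adjusted p = 0.0469), and C1qa, C1qb and Laptm5 were at least 2-fold lower after TAC. The part of these markers was not tested.

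Rsad2 had the largest difference. Its 4 fibroblast levels lay between 6.84 and 9.30, against 12.20 after TAC and 12.43 after sham in endothelial cells, so the groups did not overlap. The mean difference was -4.19 with a standard error of 0.614, or 18.2-fold (limma adjusted p = 0.0184). The antiviral synthetases Oas1a (-2.27 ± 0.409 SE, limma adjusted p = 0.0283) and Oas2 (-2.13 ± 0.332 SE, limma adjusted p = 0.0211) were 4.84-fold and 4.38-fold lower in fibroblasts. Parp14 was 3.84-fold lower (-1.94 ± 0.238 SE, limma adjusted p = 0.0132). The translation inhibitor Samd9l and the nucleotide kinase Cmpk2 were each 3.36-fold lower (limma adjusted p = 0.0155 and 0.0165). Stat2 (-1.55, limma adjusted p = 0.0473), Rtp4 (-1.55, limma adjusted p = 0.0251) and Xaf1 (-1.42, limma adjusted p = 0.0312) complete the list.

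The median over the 35 genes was -0.91, against 0.22 over all genes, and 33 of the 35 were below 0. Iigp1 (-2.94, limma adjusted p = 0.064), Igtp (-1.96, limma adjusted p = 0.0668), Gbp3 (-1.36, limma adjusted p = 0.0948), Eif2ak2 (-1.27, limma adjusted p = 0.0882), Gbp2 (-1.26, limma adjusted p = 0.0912), Irgm2 (-1.21, limma adjusted p = 0.154) and Bst2 (-1.07, limma adjusted p = 0.0649) differed at least 2-fold without passing. Isg20 (0.54, limma adjusted p = 0.326) and Dhx58 (0.13, but -1.10 after quantile normalization) were above 0, and Mx2 lay at -0.00. With surgery as a block the count was 15, and without the endothelial sham array it was 3 (Parp14, Cmpk2 and Samd9l). Without the endothelial TAC array, the one with fibroblast transcripts, it was 10, with Iigp1, Igtp and Irgm2 in the list and without Oas1a and Rsad2.

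At each surgery taken alone, with 1 endothelial array and no test, 13 of the 35 were at least 2-fold lower in fibroblasts after TAC (37.1%), where 9.6% of all genes were, and 23 after sham (65.7%), where 10.1% were. None was at least 2-fold higher after TAC (17.6% of all genes), and Isg20 alone was after sham (1.04; 23.3% of all genes), though not after quantile normalization. The 13 of the TAC comparison were the 9 above with Gbp2, Iigp1, Igtp and Eif2ak2, and all were also among the 23 of the sham comparison. The 10 that were 2-fold lower after sham but not after TAC were Irf1 (-1.03), Irf9 (-1.18), Ifit2 (-1.02), Oasl1 (-1.40), Oasl2, Gbp3, Irgm1, Irgm2, Usp18 and Bst2. Over all genes, 7.34% were lower and 14.8% higher at both surgeries. The median difference was -0.69 after TAC, against 0.14 over all genes, and -1.40 after sham, against 0.28 over all genes. The cell type difference of Usp18 was -0.01 after TAC and -1.19 after sham, that of Oasl2 -0.01 and -1.21, that of Irgm1 -0.11 and -1.80, and that of Gbp3 -0.58 and -2.15. Parp9 (-0.77 after TAC, -0.79 after sham), Irf7 (-0.40 and -0.48), Trim25 (-0.94 and -0.88) and Ifi35 (-0.51 and -0.41) differed by nearly as much at either surgery. The endothelial array of the sham comparison is the one with the lower fibroblast markers (a sum of 129.3 after TAC, 97.3 after sham), and their part in the larger sham differences was not tested.

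**Figure D4:**
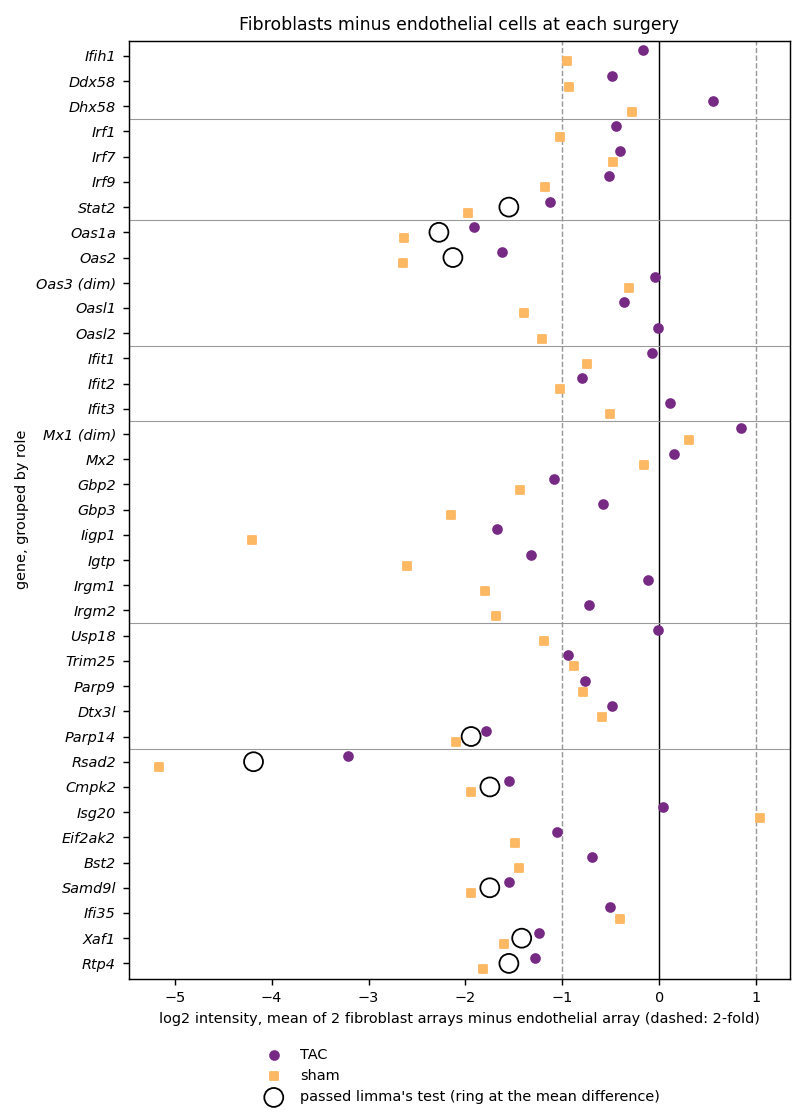
Difference in log2 intensity, mean of the 2 fibroblast arrays minus the endothelial array, after TAC (purple circles) and after sham (orange squares) for the 37 genes with a probe set; open rings mark, at the mean difference, the 9 genes that passed limma's test. Rsad2 lies farthest left (-3.21 after TAC, -5.17 after sham), and for Iigp1 the values are far apart (-1.68 after TAC, -4.21 after sham).

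The third comparison set traced against untraced fibroblasts. None of the 35 genes differed at least 2-fold at either surgery, where 0.375% of all genes were higher and 0.131% lower in traced cells after TAC, 0.4% higher and 0.416% lower after sham, and 0.0326% higher and 0.0408% lower at both. This comparison has 1 array per group and was not tested. The small differences leaned towards lower values in traced cells: 28 of 35 were below 0 after TAC, as were 61.4% of all genes, 29 of 35 after sham, as were 67.2%, and 23 of 35 at both, as were 46.1%. After centring on housekeeping genes 7 of the 28 turned positive. The median was -0.24 after TAC, against -0.07 over all genes, and -0.21 after sham, against -0.11 over all genes. Rsad2 stood lower in traced cells by both arrays (-0.62 after TAC, -0.85 after sham). Usp18 (-0.45 and -0.84), Dhx58 (-0.30 and -0.81), Ifit3 (-0.47 and -0.59), Oas1a (-0.41 and -0.56), Irgm1 (-0.64 and -0.48) and Gbp3 (-0.65 and -0.37) did so as well. The other probe sets of Rsad2 gave -0.19 and -0.61 after TAC and 0.29 and -1.15 after sham. Those of Dhx58 gave 0.11 and -0.33 after TAC and -0.46 and 0.15 after sham. Xaf1 was the only gene above 0 at both surgeries (0.14 and 0.10). Bst2 (0.24 and -0.04), Isg20 (0.15 and -0.24) and Oas2 (-0.39 and 0.28) had different signs at the 2 surgeries. Macrophage markers were higher in traced cells (7 of 8 detected above 0, medians 0.46 after TAC and 0.31 after sham) and endothelial markers lower (medians -0.43 and -0.11), and their part was not tested.

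**Figure D5:**
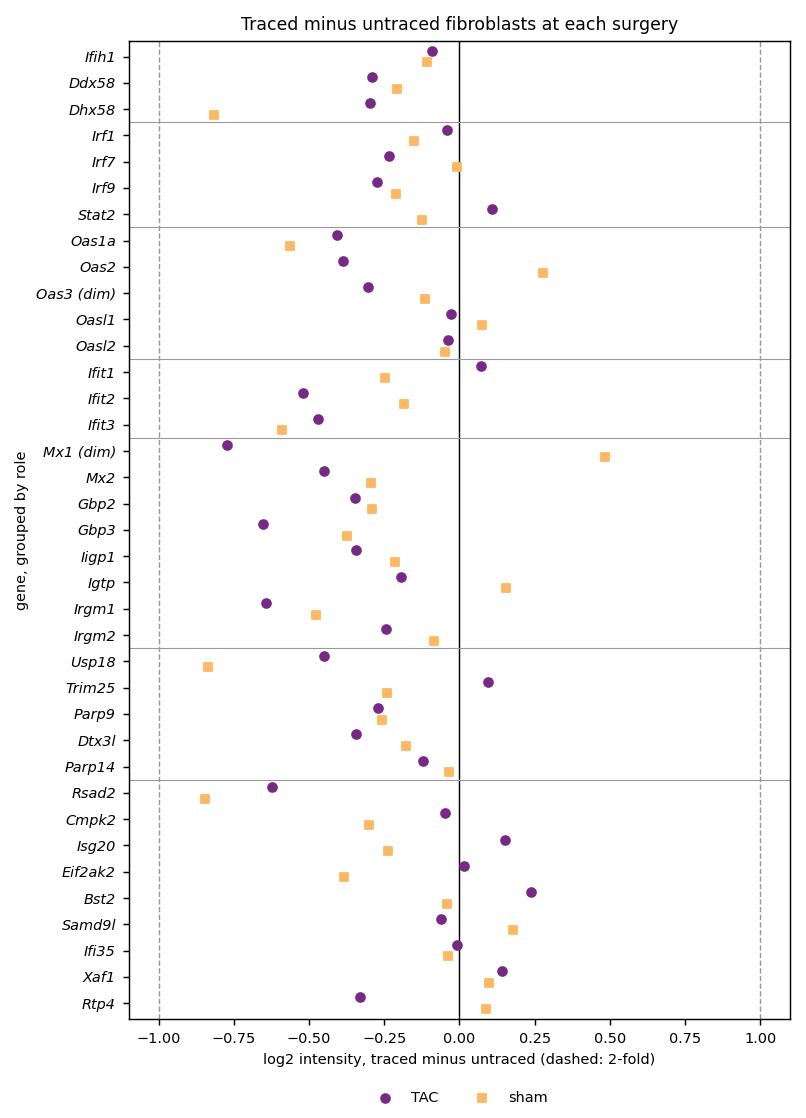
Difference in log2 intensity, traced minus untraced fibroblasts, after TAC (purple circles) and after sham (orange squares) for the 37 genes with a probe set, 1 array per group; dashed lines mark 2-fold. No gene reaches a dashed line; the detected genes span -0.65 to 0.24 after TAC and -0.85 to 0.28 after sham.

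Genes upstream of the set were read from lists of ligands, receptors and signalling proteins. Of 9 listed interferon ligands, 5 had a probe set and 1, Ifna1, was detected. Ifna1 lay at 6.97 to 7.70, not far above the array medians, and its probe set may also read related sequences. Ifnb1, the type I interferon usually made first, lay between 4.53 and 5.28 and Ifng between 3.71 and 4.16, below the median of every array. Of 6 receptor genes 5 were detected, and none was at least 2-fold different in any of the 3 comparisons or passed limma's test. Ifnar1 stood at 9.34 to 9.70 and Ifnar2 at 11.60 to 12.08 over all 6 arrays, and Ifngr1 at 11.08 to 11.97. Of 9 listed genes of JAK-STAT signalling and its inhibitors, 7 were detected, and none differed 2-fold or passed the test either. Jak1 differed by 0.01 in traced fibroblasts, 0.08 in untraced fibroblasts and 0.35 in endothelial cells between TAC and sham.

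Among 14 genes that sense nucleic acids or relay that signal, 12 were detected. Sting1, read by a probe set that may share transcripts with related sequences, encodes STING, the adaptor of cytosolic DNA sensing, and stood at 10.11 after TAC and 8.18 after sham in traced fibroblasts, at 10.07 after TAC and 8.36 after sham in untraced fibroblasts, and at 10.71 after TAC and 9.84 after sham in endothelial cells. It was the one gene of this list at least 2-fold higher in both fibroblast populations (1.93 and 1.72). Cgas, the DNA sensor that activates STING, differed by 0.08 and 0.13 in fibroblasts and by 1.08 in endothelial cells. Mavs, the adaptor of the RNA sensors RIG-I and MDA5, whose probe set may also read related sequences, differed by -0.16 and 0.21 in fibroblasts and by -1.65 in endothelial cells. Between the cell types, Ikbke, a kinase that activates interferon regulatory factors, was higher in fibroblasts (2.33 ± 0.215 SE, limma adjusted p = 0.00791), opposite to the 9 genes above. At one surgery or both, Irf8 (1.23 after TAC, 1.79 after sham), Myd88 (0.85 and 1.66) and Ticam1 (0.58 and 1.53) stood at least 2-fold higher in fibroblasts, Sting1 (-0.62 and -1.57), Mavs (0.38 and -1.30) and Tlr3 (-1.03 and -0.81) at least 2-fold lower.

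A longer list of 46 other interferon-stimulated genes, of which 37 were detected, was read in the same way. After TAC none of the 37 was at least 2-fold higher in both fibroblast populations, where 4.19% of all genes were, and a difference from the 3 of 35 was not tested. Ifi47, a GTPase, stood higher by 0.78 in traced and 0.70 in untraced cells and Zbp1, a sensor of Z-form nucleic acids, by 0.48 and 0.67. Ifitm1, which blocks viral entry, was at least 2-fold lower in both (-1.14 and -1.78). Psmb9, an immunoproteasome subunit, was so in untraced cells (-1.13). The median was -0.08 in traced and -0.07 in untraced fibroblasts. In endothelial cells the 4 genes at least 2-fold lower after TAC were Gbp6 (-1.76), Trim34a (-1.41), Gbp7 (-1.23) and Ddx60 (-1.22), of which Gbp6 and Gbp7 are guanylate-binding proteins like Gbp2 and Gbp3. Ifi27l2a (2.74) and Slfn9 (1.10) were higher. Ifi27l2a was brighter on fibroblast than on endothelial arrays (12.67 to 12.95 on fibroblast arrays, against 11.02 after TAC and 8.28 after sham in endothelial cells). None of the 37 differed 2-fold between traced and untraced fibroblasts. Between the cell types 11 of the 37 were lower in fibroblasts by limma's test and 1, Parp11, was higher (1.08, limma adjusted p = 0.0373). The 8 with the largest differences among the 11 were Slfn2 (-2.66), Ifi47 (-2.50), Psmb9 (-2.38), Slfn5 (-2.05), Psmb8 (-1.84), Herc6 (-1.83), Sp100 (-1.82) and Lgals9 (-1.72), and the median of the list was -0.74.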

How the data were processed

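RNA of each population and surgery was hybridised to 1 Affymetrix mouse array, 6 in all, from 200 ng labelled per the labels' protocols. The authors deposited 1 intensity for each of 45101 probe sets, made with RMA per the submitters' processing notes (version not given in the sources used here). Intensities run from 3.82 to 37205, a linear scale, and log2 was taken without further normalization. RMA makes no detection call and compresses differences at low signal. The number of arrays limits the precision.

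Probe sets were named by the platform's annotation with symbols brought up to date through RefSeq (GRCm38.p6), which held 99.4% of the gene identifiers. Of the probe sets, 34958 had 1 symbol, 932 had several and 9211 had none. A gene was read from its brightest probe set with exactly 1 symbol. Genes above their array's median on at least 1 of 6 arrays, 12257 of 18194, entered every comparison.

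The cell types were set against each other in limma 3.58.1 (lmFit, eBayes; R 4.3.3) on 2 values each, with Benjamini-Hochberg adjustment over all 12257 genes, an adjusted p under 0.05 and at least 2-fold. The script was tested on simulated data. Comparisons of 1 array against 1 were not tested, and a 2-fold difference is counted. Alternatives were other probe set rules, filters, scalings and fold thresholds, surgery as a block, a trend in eBayes, and leaving out each array.

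The genes and lists were chosen with earlier results of these data known. All 39 genes are accounted for, each of them that was at least 2-fold different or passed the test is named, and of the other lists up to 8 per comparison by size are named. Promoters are from RefSeq's GRCm38.p6 table.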

Additional observations from a re-analysis of the deposited data

Results flagged for a closer look

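For 3 genes both fibroblast populations stood higher after TAC while endothelial cells stood lower, with a 2-fold difference on at least 1 side. The endothelial response minus the mean fibroblast response was -2.53 for Iigp1, -1.96 for Rsad2 and -1.69 for Irgm1 (log2). For Iigp1 and Irgm1 most of it came from the endothelial arrays (-2.18 and -1.02), for Rsad2 from the fibroblast arrays (1.84 in traced and 1.62 in untraced cells, against -0.23 in endothelial cells). With 1 array per group, the difference between the responses was not tested. The endothelial TAC array also carried fibroblast markers at a median of 2.68 above the endothelial sham array, and their part was not tested.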

How the results depend on the processing

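The TAC comparisons depended most on the threshold. With a 1.5-fold threshold, 11 genes were higher after TAC in untraced fibroblasts and 8 in both fibroblast populations. At that threshold 9 were lower in endothelial cells, and 1 differed between traced and untraced cells at both surgeries. The share of all genes at 1.5-fold is not given here, so these counts have no background beside them. A stricter detection filter, at each array's upper quartile, left 31 of the genes and removed Usp18, Oasl1, Dhx58 and Mx2. The number at least 2-fold higher after TAC was then 3 in traced fibroblasts, 2 in untraced fibroblasts and 1, Rsad2, in both. Usp18 and Oasl1, counted in both populations in the main analysis, were thus among the dimmer genes. Centring on housekeeping genes gave 8 genes at least 2-fold lower in endothelial cells after TAC, adding Stat2, Oasl2, Gbp2 and Gbp3. That centring moved the median of all genes for TAC minus sham in endothelial cells to -0.00 and in untraced fibroblasts to -0.17. It shifts every gene of an array by the same value. The 35 relative to all genes, -0.44 in endothelial cells, therefore could not change under it. Surgery as a block raised the share of all genes that limma called lower in fibroblasts from 6.5% to 9.09%. The number of genes that limma called lower in fibroblasts was 15 with surgery as a block, and 3 to 10 when each array was left out in turn, the lowest without the endothelial sham array. The count of genes at least 2-fold lower in fibroblasts was 12 to 14 after TAC and 20 to 26 after sham over the arrays left out, and 0 genes were higher by limma in each case. In limma's comparison of the cell types the sign turned for Mx2 and Dhx58, both with values near 0. Mx2 was at 0.046 with arrays centred on their median, 0.065 after quantile normalization and 0.059 with centring on housekeeping genes, and it lay between -0.27 and 0.27 over the arrays left out. Dhx58 was at -1.10 after quantile normalization, which read it from another probe set, and lay between -0.070 and 0.34 over the arrays left out. The cause was not tested for the other cases. Of 2065 recomputed differences of single genes between arrays or their means, 66 had the opposite sign, over 25 genes; none of these was at least 2-fold as reported, and the median of their sizes as reported was 0.045. The largest was Dhx58 between the cell types after TAC, -0.76 after quantile normalization against 0.55 as deposited. Of 555 recomputed limma values of single genes, 9 reversed, 13 gained and 14 lost the call, and 519 kept sign and side of the threshold. No paired analysis was possible because of the replicate numbers, of which the groups share only 1; the pairing by surgery is the block fit given above. The limits are those of 6 arrays: no group has a second array, comparisons of surgery and of lineage were not tested, RMA hides how far a dim probe set such as Oasl1, Oas2 or Mx2 lies above background, and the cell type comparison takes the 2 surgeries as its only repeats.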
